A study of Drosophila melanogaster with 6 samples.

Results

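The genes described here are 10 apicobasal polarity genes of Drosophila melanogaster, aPKC, par-6, baz, l(2)gl, dlg1, scrib, crb, sdt, Patj and par-1, out of 13727 genes in the authors' deposited table. They were picked by symbol as a textbook polarity set around aPKC, and aPKC brought the set in because its value in the mutant column is far lower than in the wild-type column. The choice names no numerical threshold, and the fold change of aPKC is therefore a description and not a finding supported by a test. The other 9 genes came in with it by function.

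RNA was measured in L3 neurons, a neuron type of the lamina in the fly optic lobe, sorted by their fluorescent label at 24 h after puparium formation (APF). The WT group has 3 samples titled FRT40, with title dates of 28, 29 and 30 November (month 11). The dFezf1 group has 3 samples of genotype dFezf1, dated 12, 13 and 14 December (month 12), where dFezf is the zinc finger transcription factor gene also known as earmuff (erm). Title date and genotype cannot be told apart. The design text calls the samples biological replicates. The driver of the fluorescent label, the nature of the dFezf1 lesion and the number of animals pooled in a sample are not given in the sources used here.

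Apicobasal polarity is set in epithelia and neuroblasts by protein complexes that keep each other out of parts of the cell cortex. The Par complex (baz, par-6 and the kinase aPKC) and the Crumbs complex (crb, sdt and Patj) hold the apical side. The Scribble module (l(2)gl, dlg1 and scrib) and the kinase par-1 hold the basolateral side, and aPKC phosphorylates l(2)gl to keep it off the apical cortex. In neurons, which have no apical surface of that kind, several of these proteins are also known from axons and synapses.

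aPKC, which encodes the atypical protein kinase C that acts as the catalytic subunit of the Par complex, was the second most abundant gene of the set in WT and the seventh in dFezf1. Its mean abundance in the authors' deposited table was 30.7 in WT against 1.34 in dFezf1, so that 4.36% of the WT level was left, a 22.9-fold difference between the means. Abundance here is the authors' group mean on a length-scaled scale whose unit is not stated. It comes with no spread between libraries, because the values per library carry codes that match no sample label and were not used. Whether every library of a genotype shares a level, or whether the libraries of the 2 genotypes overlap, was therefore not examined. The log2 fold change of dFezf1 against WT in the authors' deposited table, shrunken toward 0, was -4.22 ± 0.41 (SE), with a 95% interval of -5.02 to -3.41. The authors' deposited table gives aPKC an adjusted p of 8.75e-22, which put aPKC at rank 15 of 9387 tested genes by p and at rank 10 by fold change among the 234 genes called lower. In sorted cells, fewer cells that express a gene and less RNA per cell cannot be told apart.

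aPKC (FBgn0261854) lies on chromosome 2R from 14944458 to 14962969 on the minus strand of build BDGP6 and has 12 annotated transcripts. Its span shares 12 bases with the neighbouring gene CG10257 on the opposite strand and overlaps no other annotated gene. CG10257 had a mean normalized count of 51.3 and a log2 fold change of -0.59 ± 0.80 (SE; adjusted p = 0.819) in the authors' deposited table.

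Neither partner of aPKC in the Par complex was called at an adjusted p under 0.05. par-6 (chromosome X, 17703352 to 17707096) encodes the adaptor that binds aPKC and the small GTPase Cdc42. In the authors' deposited table its mean abundance was 3.77 in WT against 3.13 in dFezf1, with a log2 fold change of -0.22 ± 0.54 (SE) and an adjusted p of 0.922. baz (chromosome X, 17160006 to 17200728) encodes the PDZ-domain scaffold known as Par-3 in other animals. Its mean abundance in the authors' deposited table was 0.613 in WT against 1.07 in dFezf1, with a log2 fold change of 0.75 ± 0.52 (SE) and an adjusted p of 0.558. The span of baz shares 363 bases with lncRNA:CR44026 and 3 with TTLL1A, both on the opposite strand. The 95% intervals of the fold change ran from -1.27 to 0.83 for par-6 and from -0.28 to 1.77 for baz in the authors' deposited table. As the fold changes are shrunken toward 0, these intervals do not bound the unshrunken change. Relative to par-6, aPKC stood at a ratio of mean abundances of 8.15 in WT against 0.428 in dFezf1.

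**Figure D1:**
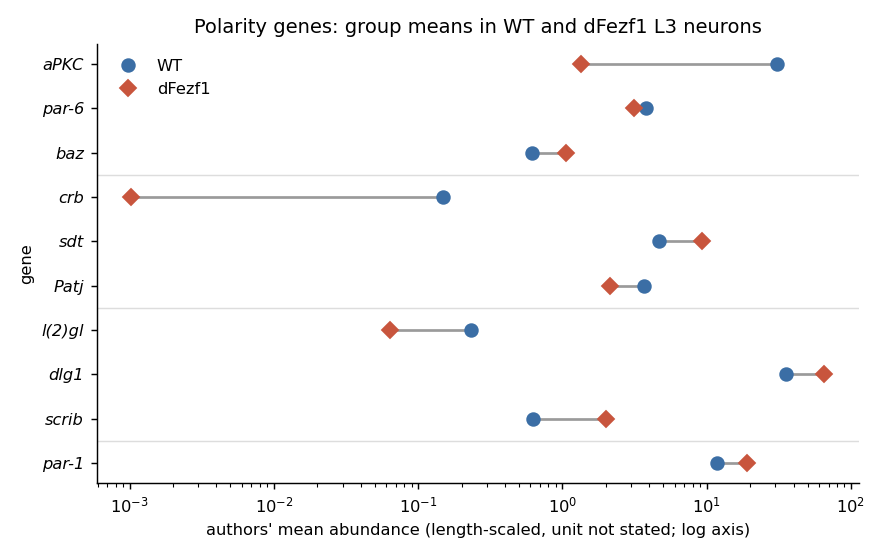
Mean abundance of the 10 polarity genes in WT (circles) and dFezf1 (diamonds), on a log axis, from the authors' group means, which carry no error bars. Horizontal lines part the Par complex, the Crumbs complex, the Scribble module and par-1. aPKC went from 30.7 to 1.34 while par-6 went from 3.77 to 3.13, and crb and l(2)gl were low in both groups.

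No member of the Crumbs complex passed the test. crb (chromosome 3R, 24295078 to 24314541) encodes the transmembrane protein that gives the complex its name. It was the least abundant of the 10 genes in both groups, with a mean normalized count of 34.4 and mean abundances of 0.150 in WT against 0.00103 in dFezf1 in the authors' deposited table. Its log2 fold change there was -0.82 ± 0.67 (SE; adjusted p = 0.259), inside an interval of -2.13 to 0.50. The deposited statistic of crb, -2.18, is not this fold change over its SE, so the interval is not that of the test. The log2 ratio of its group means, -7.18, was far larger in size than the shrunken fold change.

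sdt (chromosome X, 8178549 to 8240474) encodes the membrane-associated guanylate kinase protein that binds the cytoplasmic tail of Crb. It was the most abundant of the Crumbs complex genes, at 4.64 in WT against 9.36 in dFezf1 in the authors' deposited table, with a log2 fold change of 0.999 ± 0.51 (SE; adjusted p = 0.356). Patj (chromosome 3L, 1798803 to 1802184) encodes a scaffold with several PDZ domains. In the authors' deposited table it stood at 3.70 in WT against 2.14 in dFezf1, with a log2 fold change of -0.46 ± 0.66 (SE; adjusted p = 0.834). The 3 genes of the complex therefore held point estimates in both directions. Patj shares 177 bases of its span, introns included, with JTBR on the opposite strand. The Smart-seq2 and Nextera preparation named in the labels does not keep strand, so reads there could come from either gene. Whether exons are shared was not examined. JTBR had a log2 fold change of -1.05 ± 0.55 (SE; adjusted p = 0.372) in the authors' deposited table.

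Of the basolateral genes, dlg1 came nearest to the threshold. dlg1 (chromosome X, 11369665 to 11409776) encodes Discs large, a membrane-associated guanylate kinase scaffold also found at neuromuscular synapses. It was the most abundant of the 10 genes in both groups, at 35.3 in WT against 65.3 in dFezf1 in the authors' deposited table, with a mean normalized count of 18925. Its log2 fold change there was 0.92 ± 0.37 (SE), at an unadjusted p of 0.0119 and 0.137 after adjustment.

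scrib (chromosome 3R, 26536350 to 26604051) encodes a scaffold with leucine-rich repeats and PDZ domains. Its mean abundance in the authors' deposited table was 0.630 in WT against 2.01 in dFezf1, and its log2 fold change of 1.31 ± 0.63 (SE; adjusted p = 0.301) was the largest positive one of the set. The span of scrib, introns included, shares 1918 bases with lncRNA:CR46084 on the opposite strand. Reads there could come from either gene, but whether exons are shared was not examined. The 95% intervals of dlg1 (0.20 to 1.64) and scrib (0.07 to 2.54) in the authors' deposited table exclude 0, but these intervals are not adjusted for the number of genes tested. l(2)gl (chromosome 2L, 9839 to 21376) encodes the substrate of aPKC at the lateral cortex. It was low in both groups, at 0.232 in WT against 0.0639 in dFezf1 in the authors' deposited table, with a log2 fold change of -0.24 ± 0.64 (SE; adjusted p = 0.931). The log2 ratio of its group means was -1.86, and -1.02 with a pseudocount of 0.1.

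par-1 (chromosome 2R, 19456170 to 19485686) encodes the basolateral kinase that phosphorylates Baz and microtubule-associated proteins. Its mean abundance in the authors' deposited table was 11.9 in WT against 19.0 in dFezf1, with a log2 fold change of 0.61 ± 0.43 (SE) and an adjusted p of 0.569. The value of par-1 may be uncertain, because 3354 bases of its span, introns included, are shared with mei-W68 on the same strand. Reads there could come from either gene, but whether exons are shared was not examined. mei-W68 had a log2 fold change of -0.61 ± 0.80 (SE; adjusted p = 0.815) in the authors' deposited table. A further 193 bases are shared with Tbcb on the opposite strand, at 0.41 ± 0.74 (SE; adjusted p = 0.879) on the same scale of the authors' deposited table.

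**Figure D2:**
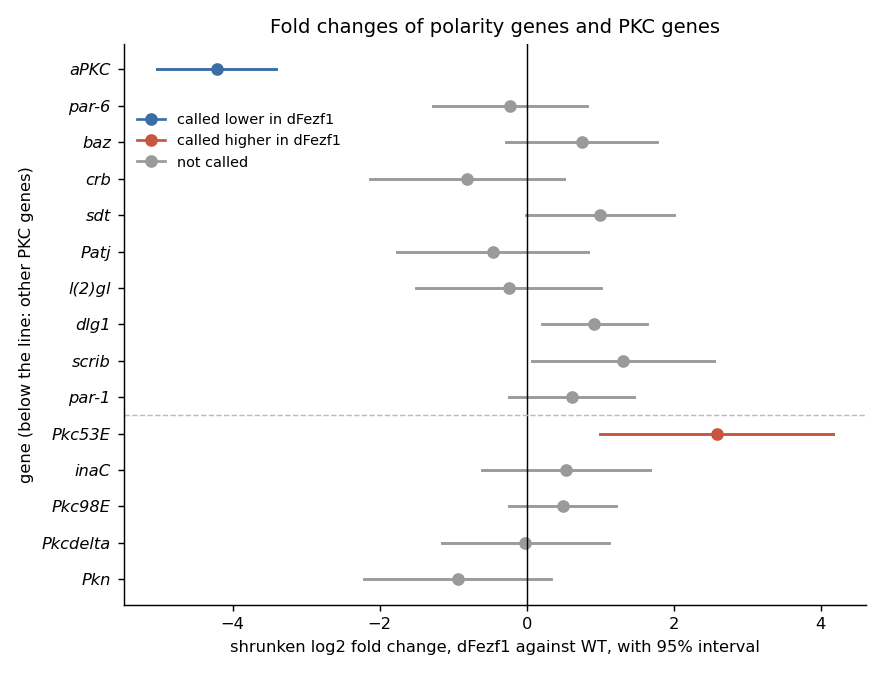
Shrunken log2 fold change of dFezf1 against WT with its 95% interval for the 10 polarity genes (above the dashed line) and 5 other genes of the protein kinase C group (below it), from the authors' deposited table. aPKC lies at -4.22 and Pkc53E at 2.58, the 2 genes past the threshold, and of the other intervals those of dlg1 and scrib lie above 0 while the rest include it.

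Calls were made where the adjusted p was below 0.05. All 10 polarity genes received an adjusted p in the authors' deposited table, and 8 of them reach a mean normalized count of 100, crb and l(2)gl being the 2 below it. Of the 10 genes, 1 was called lower and 0 higher, while the authors' deposited table calls 6.82% of all tested genes (4.33% higher, 2.49% lower). Since aPKC was picked for its fall, nothing is read from that share. Among the other 9 genes the authors' deposited table has 0 calls, and 3 of the 9 (dlg1, crb and scrib) have an unadjusted p under 0.05. Their point estimates were positive in 5 genes (baz, sdt, dlg1, scrib and par-1) and negative in 4 (par-6, crb, Patj and l(2)gl). Over all 9387 tested genes, 1334 have an unadjusted p under 0.05 and 4838 have a positive log2 fold change. The median log2 fold change of these 9 genes in the authors' deposited table was 0.61, against 0.03 over all tested genes. The 8 pan-neuronal markers examined had a median of 0.76 in the authors' deposited table, with 7 of 8 positive and 0 called (5 at an unadjusted p under 0.05), and the part of that shift in the values of the polarity genes was not tested.

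**Figure D3:**
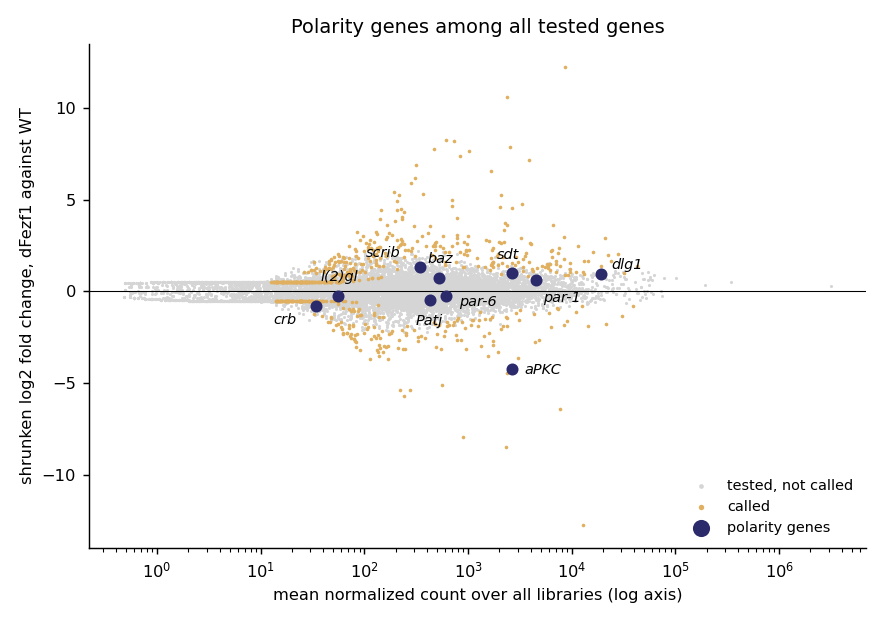
Mean normalized count (log axis) against shrunken log2 fold change for all 9387 tested genes of the authors' deposited table, with called genes in ochre and the 10 polarity genes in dark blue. aPKC, at a mean normalized count of 2645, stands at -4.22, while the other 9 genes lie between -0.82 and 1.31.

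The order of the levels is given as a description, since aPKC was chosen for its fall in the same group means. Levels are set side by side between genes because the abundance is scaled to length, but this holds only approximately. A length was implied for each gene by the ratio of count to abundance, scaled on genes with 1 transcript. For l(2)gl it was 8418 bases, against a longest annotated transcript of 5528. For aPKC it was 3669, within its annotated range of 2069 to 4573. In WT the order of the mean abundances in the authors' deposited table was dlg1, aPKC, par-1, sdt, par-6, Patj, scrib, baz, l(2)gl and crb. In dFezf1 aPKC moved from the second place to the seventh, between scrib and baz, and the other 9 genes kept their order among themselves. Of all tested genes in the authors' deposited table, 91.4% lay below aPKC in WT and 42.8% in dFezf1. For par-6 these shares were 60.9% and 57.7%. In WT, par-6 and Patj (3.77 and 3.70) and scrib and baz (0.630 and 0.613) had close means, and without a spread between libraries no neighbours in the order can be told apart. Summed over the 10 genes, the mean abundance in the authors' deposited table was 91.6 in WT against 103 in dFezf1, of which aPKC made up 33.5% and 1.29%.

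The other genes of the protein kinase C group were looked at next, since they encode kinases related to aPKC. Pkc53E, a conventional protein kinase C gene, was called higher, with mean abundances of 0.0200 in WT against 1.59 in dFezf1, and the authors' deposited table gives a log2 fold change of 2.58 ± 0.81 (SE; adjusted p = 0.000836). Pkc98E, which encodes a calcium-independent protein kinase C, was at 7.24 in WT against 9.56 in dFezf1, with a log2 fold change of 0.49 ± 0.37 (SE; adjusted p = 0.604) in the authors' deposited table. It took the place of aPKC as the most abundant gene of the group in dFezf1.

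Pkn, which encodes a related kinase, had a log2 fold change of -0.94 ± 0.65 (SE; adjusted p = 0.545) in the authors' deposited table. In the authors' deposited table inaC, the eye protein kinase C gene, was listed at 0 in WT and at 0.107 in dFezf1 (adjusted p = 0.435), and Pkcdelta was at 0.00813 and 0.00679 (adjusted p = 0.994). With Pkn left aside, aPKC held 80.9% of the summed protein kinase C abundance in WT and 10.6% in dFezf1 by the group means of the authors' deposited table, while the sum went from 38.0 to 12.6. Since aPKC was picked for its fall, nothing is read from that share or sum. Without aPKC, the 5 genes, Pkn included, summed to 8.82 in WT against 12.0 in dFezf1. Of the 5 genes other than aPKC 1 was called, beside 6.82% of all tested genes, and their median log2 fold change was 0.49.

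Partners and regulators of the Par and Crumbs complexes formed a list of 26 genes, all tested, of which the authors' deposited table calls 1 higher and 0 lower. The 1 gene was Moe, which encodes Moesin, the protein that links the membrane to actin. Its mean abundance was 27.6 in WT against 69.8 in dFezf1, and the authors' deposited table gives a log2 fold change of 1.33 ± 0.38 (SE; adjusted p = 0.00861). Cdc42 had a log2 fold change of 0.38 ± 0.71 (SE; adjusted p = 0.888) in the authors' deposited table. veli, which encodes a PDZ protein that joins the Crumbs complex through Sdt, had one of 0.30 ± 0.46 (SE; adjusted p = 0.845). Cdc42 and veli were named after their values were seen. The median of the list was 0.22 on the log2 fold change scale of the authors' deposited table.

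Genes of asymmetric cell division, in which the Par complex steers fate determinants in neuroblasts, had 0 calls among 14 tested in the authors' deposited table (3 at an unadjusted p under 0.05), with 1 unmatched symbol and 1 gene at 0 in both groups left out. The 3 most abundant by mean normalized count were brat, Gbeta13F and Ggamma1. In the authors' deposited table brat, a translational repressor gene, had a log2 fold change of 0.07 ± 0.35 (SE; adjusted p = 0.971). Gbeta13F, a G protein subunit gene, had one of 0.20 ± 0.23 (SE; adjusted p = 0.784), and its partner Ggamma1 one of -0.35 ± 0.41 (SE; adjusted p = 0.795) in the authors' deposited table. The median log2 fold change of the list was 0.37 in the authors' deposited table.

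Junction genes changed in single cases. Of 14 tested adherens junction genes the authors' deposited table calls 1 higher and 0 lower. This was pyd, which encodes the fly ZO-1 protein and had 0.919 in WT against 8.77 in dFezf1, a log2 fold change of 2.78 ± 0.56 (SE; adjusted p = 2.45e-05) in the authors' deposited table. Of 22 tested septate junction genes it calls 1 higher and 1 lower. Nrx-IV, which encodes a transmembrane protein of septate junctions, had mean abundances of 11.3 in WT against 2.28 in dFezf1 (adjusted p = 7.21e-06) in the authors' deposited table. bark, a gene of tricellular junctions, rose by 1.85 ± 0.50 (SE) on the log2 scale, from 1.25 to 5.19 in mean abundance (adjusted p = 0.00457, the authors' deposited table). The medians of the adherens and septate junction lists were 0.22 and -0.20 on the log2 fold change scale.

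Planar polarity genes, which orient cells within the plane of a tissue, had 0 calls among 13 tested in the authors' deposited table, and 2 had an unadjusted p under 0.05. stan, which encodes the cadherin Flamingo, had a log2 fold change of 0.88 ± 0.36 (SE; adjusted p = 0.152) in the authors' deposited table. The receptor genes fz2 and fz had log2 fold changes of -0.25 ± 0.29 and -0.60 ± 0.40 (SE; adjusted p = 0.785 and 0.527) in the authors' deposited table. The median of the list was 0.02. Over the 6 lists beside the 10 polarity genes, the authors' deposited table calls 5 of 94 tested genes, with 4 of them higher and 1 lower, or 5.32%, beside 6.82% of all tested genes. Of the 640 genes called in all, 323 have a group mean of 0. Among genes with both group means above 0, adjusted over those genes, 5 of 87 list genes were called, or 5.75%, beside 254 of 7983 genes, or 3.18%, so the order of the shares depends on that filter and nothing is read from it.

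**Figure D4:**
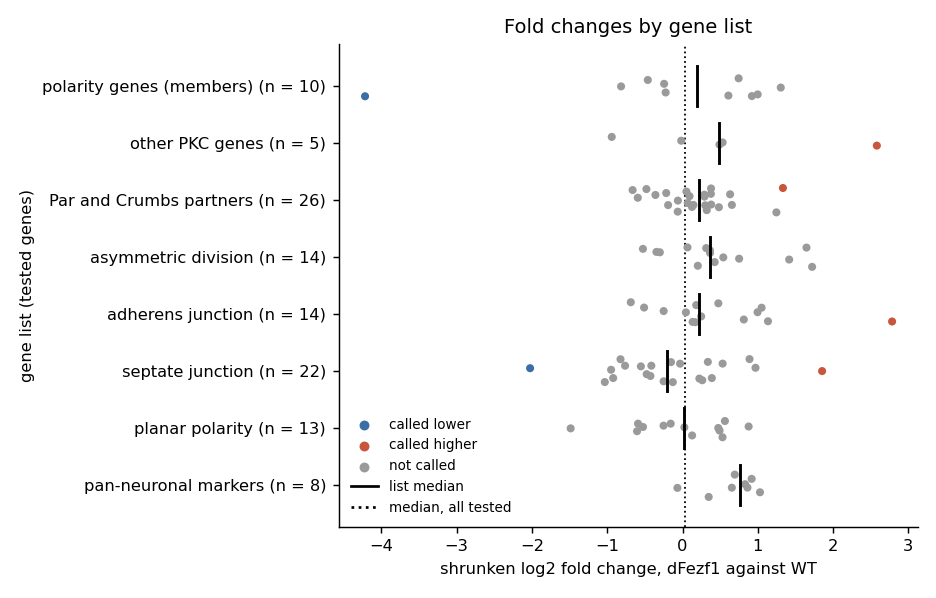
Shrunken log2 fold change of every tested gene by list, from the authors' deposited table, with called genes coloured, a black bar at each list's median and a dotted line at the median of all tested genes (0.03). aPKC at -4.22 is the lowest point of the lists shown, and the pan-neuronal markers have a median of 0.76.

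The labelled cell type was checked against markers in the same table. As a background for all marker lists, 6.82% of the 9387 tested genes were called. Of these 9387 genes, 1334 have an unadjusted p under 0.05 and 4838 have a positive log2 fold change. erm, the L3 factor gene that carries the dFezf1 allele, had mean abundances of 55.1 in WT against 49.2 in dFezf1 in the authors' deposited table, so the transcript level does not check the genotype labels. Pan-neuronal markers summed to 358 in WT against 558 in dFezf1 in the authors' deposited table, with brp at a log2 fold change of 1.03 ± 0.41 (SE; adjusted p = 0.138). Neuroblast and progenitor markers summed to 16.2 and 8.72, of which PCNA, not called (adjusted p = 0.678), made up 16.0 and 5.38. Without PCNA the sum was 0.194 in WT against 3.34 in dFezf1, and wor, l(1)sc, sc and tll were at 0 in both groups. Among the 11 tested, 10 had a positive log2 fold change there (median 0.53, 4 at an unadjusted p under 0.05). The 1 gene called was E(spl)mgamma-HLH, called higher, listed at 0 in WT and at 0.772 in dFezf1. Its mean normalized count was only 13.4, and its log2 fold change of 0.54 had a 95% interval of -0.61 to 1.68, which includes 0.

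Glial markers summed to 2.91 in WT against 11.1 in dFezf1 in the authors' deposited table, with repo at 0.162 and 0.356. Of the 11 tested, 8 had a positive log2 fold change (median 0.34, 5 at an unadjusted p under 0.05), and 2 were called, both higher (gcm and pnt, both listed at 0 in WT). Photoreceptor markers summed to 11.1 and 19.7, with 7 of 7 tested genes positive, 0 called (1 at an unadjusted p under 0.05) and ninaE, trp and Arr2 at 0 in both groups. Of markers of epithelia, trachea and blood, the authors' deposited table calls 1 of 6 lower, Fas3, an adhesion gene that neurons also express (253 in WT, 67.6 in dFezf1, adjusted p = 4.2e-15). The next highest of that list was shg, at 0.398 and 1.03, and He, NimC1 and btl were at 0 in both groups. Of 8 tested markers of L3 and other lamina neurons, 5 had a positive log2 fold change and 1, svp, was called, higher, in the authors' deposited table (0.0408 in WT against 2.02 in dFezf1, adjusted p = 0.0224). The part of these markers in the fold change of aPKC was not tested.

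The 5 genes called lower whose shrunken log2 fold change was nearest that of aPKC, among genes that reach a mean normalized count of 100, were smog, mRF1, CG4935, MESR3 and mthl5. The measure is the absolute difference between the shrunken log2 fold changes in the authors' deposited table, each from 1 contrast of 2 groups. smog, a G protein-coupled receptor gene, was nearest, at a difference of 0.26, with mean abundances of 18.3 in WT against 0.672 in dFezf1 in the authors' deposited table. mthl5, also a receptor gene of that class, was at a difference of 0.68, with 24.3 and 1.68. MESR3 went from 55.9 to 2.25, mRF1 from 5.44 to 0.0268 and CG4935 from 5.25 to 0.0202 in the authors' deposited table. By the log2 ratio of the group means the order differs, with aPKC at -4.52, MESR3 at -4.64, smog at -4.77, mthl5 at -3.86, mRF1 at -7.66 and CG4935 at -8.02.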

How the data were processed

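Total RNA of sorted L3 neurons went into Smart-seq2 and Nextera libraries, per the labels' protocols. FastQC, STAR, Salmon, DESeq2 and build BDGP6 are named, with no versions or roles, per the submitters' processing notes. Groups came from the genotype labels, 3 WT and 3 dFezf1. The authors' deposited table lists 13727 genes, with a mean normalized count (a signal) over all libraries, a log2 fold change and standard error, a statistic (a score), p-values and adjusted p-values, per the file headers. Recomputing p from the statistic with a two-sided normal tail gave the deposited p-value in 9755 of 9755 genes, and Benjamini-Hochberg adjustment gave the deposited adjusted p in 9387 of 9387, both within 0.001. In 3798 genes the statistic is not, within 1%, the fold change over its SE, so fold changes are shrunken. Group means deposited under the headings wt and mutant are a signal, an abundance of unstated unit. The ratio of the mean normalized count to this abundance rose with transcript length (Spearman correlation 0.962 across 5738 genes), as for a length-scaled unit. Signs of fold change and group means were equal in 640 of 640 called genes.

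A total of 12 columns of values per library carry codes that match no label and were not used. Depth per library, spread between replicates and left-out replicates are therefore not given, and the planned fits from counts were not run. Genes were called at an adjusted p under 0.05, and 95% intervals are the fold change ± 1.96 standard errors. As the fold changes are shrunken, an interval need not match the deposited p-value. Of 100 symbols in the other lists 3 matched no gene used here. Names came from a table of gene identifiers and positions from the BDGP6 annotation, whose start equals that in the deposited table for 10 of 10 polarity genes. All members and lists were chosen with earlier results of these data known. Named genes were the polarity genes, the other protein kinase C genes, each called list member or else up to 3 of the highest mean normalized count, and the 5 genes nearest aPKC. Others were named after their values were seen. The adjustment was tested on simulated data. Python 3.11.15, pandas 2.3.3, numpy 2.4.6, SciPy 1.17.1 and matplotlib 3.10.9 were used.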

Additional observations from a re-analysis of the deposited data

How the results depend on the processing

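The other 9 polarity genes had 0 calls in the 5 alternative call rules run, in 43 of 43 values, while crb and l(2)gl gave none where a mean normalized count of 100 was required. Of these rules, an adjusted p under 0.01 and a 95% interval excluding 0 can only remove calls. Their 0 calls for the 9 genes, counted among the 43 values, were therefore fixed in advance. The adjusted p of dlg1 ranged from 0.137 to 0.205. Nothing is read from the call of aPKC under these rules, which use the values it was chosen by. The 5 calls in the other lists numbered 5 in each alternative. Over all genes, 640 calls became 297 where a mean normalized count of 100 was required and 254 with both group means above 0. Those rules leave genes out and adjust p over the genes that remain. Where the 95% interval excludes 0, a rule that can only remove calls, 359 were left. As a log2 ratio of group means with a pseudocount of 1, aPKC was at -3.76, a change that follows from the pseudocount beside a dFezf1 mean of 1.34. With no pseudocount, chosen after seeing the data, it was -4.52. All 30 such ratios of the 10 genes kept the sign of the fold change. A pseudocount added to both means cannot reverse their order, so the signs amount to 1 comparison per gene. Of the 30 ratios, 26 differed from the fold change by less than its SE. The other 4 were that of aPKC with a pseudocount of 1, crb with none (-7.18) and l(2)gl with none (-1.86) and with 0.1 (-1.02, against a fold change of -0.24). An unshrunken fold change could not be computed from the deposited columns. Fits with edgeR and DESeq2 and left-out replicates were not run because no column of counts matches a label. No paired analysis was possible because the columns carry no replicate numbers.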

Other observations

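Genes beside aPKC on chromosome 2R were looked at after its value was seen. The 3 nearest protein-coding genes on each side had 0 calls in the authors' deposited table. ckn, which starts 323 bases beyond aPKC, had a log2 fold change of 0.55 ± 0.51 (SE; adjusted p = 0.711) in the authors' deposited table. Of the other 5, 4 had positive log2 fold changes, from 0.35 (CG7639) to 1.43 (Agps), and CG10257 had -0.59, in the authors' deposited table.

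By the authors' categories, aPKC, dlg1, sdt and par-1 are listed under kinase activity, although dlg1 and sdt encode scaffolds with a guanylate kinase domain. In that category the authors' deposited table calls 12 genes higher and 4 lower among 307 tested, or 5.21%, beside 6.82% of all tested genes. aPKC, picked for its fall, is among the 4 and had the lowest log2 fold change of the 307. aPKC, par-6 and baz are listed under microtubule, where 3 of 52 tested genes, aPKC among them, were called in the authors' deposited table, or 5.77%. l(2)gl, dlg1 and par-1 are listed as ecdysone-inducible, where the authors' deposited table calls 7 of 80 tested genes, or 8.75%, of them 6 higher and 1 lower. crb is listed under cell surface, where the authors' deposited table calls 107 of 644 tested genes, or 16.6%, of them 67 higher and 40 lower. crb itself was not called. The share of cell surface lies above that of all tested genes, and the other shares lie near it. Nothing is read from any of these shares.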
